A study of Homo sapiens with 12 samples.

Results

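The stemness factors MYC, SOX2, KLF4 and BMI1, the Notch receptors NOTCH1 and NOTCH2, and the cancer stem cell (CSC) markers CD44, ALDH1A1 and PROM1 were followed in 2 RNA-Seq experiments whose libraries are labelled as LNCaP prostate cancer cells. These 9 genes were taken by symbol from count tables of 28008 genes (MUC1-C silencing) and 25435 genes (MUC1-C overexpression), and all 9 were listed in both. LNCaP is a line from a lymph node metastasis of a prostate carcinoma, and MUC1-C is the transmembrane subunit of mucin 1, an oncogenic protein that the study connects with the CSC state. For silencing, enzalutamide-resistant LNCaP-ER cells that all carried a doxycycline (DOX)-inducible MUC1 shRNA were exposed to vehicle or to DOX at 500 ng/mL over 7 days. For overexpression, libraries labelled LNCaP (wild-type) were compared with libraries labelled LNCaP/MUC1-C OE (tetMUC1-C). Each of the 4 groups held 3 libraries from triplicate cultures, so that p-values measure the spread between cultures of a line. Cells with a control shRNA treated with DOX were not analysed here, and an effect of DOX itself and one of MUC1-C silencing cannot be told apart.

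MYC, SOX2 and KLF4 are transcription factors of the pluripotency network, and BMI1 is a subunit of the Polycomb repressive complex PRC1, which silences genes through ubiquitination of histone H2A. Notch receptors are cut after binding a DLL or JAG ligand on a neighboring cell, and the released intracellular domain joins RBPJ and MAML proteins in the nucleus to activate genes such as HES1 and HEY1. CD44 (a hyaluronan receptor), PROM1 (CD133) and ALDH1A1 (a retinaldehyde dehydrogenase) are used to isolate stem-like cells from tumors, including those of the prostate.

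Promoter sequence was available in a RefSeq table (GRCh38.p14) for 8 of the 9 members, MYC being the other. The 250 bases before the annotated start were searched on both strands for CACGTG (the E-box bound by MYC and MAX), GTGGGAA (an RBPJ site), ATCAAAG (a TCF/LEF site) and GGGCGG (the GC box, to which SP and KLF factors bind). BMI1 and KLF4 each held 1 E-box, a motif present in 6.34% of the 35116 promoters searched. None of the 8 members had a match to the RBPJ or the TCF/LEF letters, which were found in 5.43% and 2.26% of promoters. At least 1 GC box was present in 42.6% of promoters, and how many each promoter held was not summarized. GC boxes numbered 6 in BMI1, 4 in KLF4, 4 in NOTCH1, 2 in CD44, 1 in SOX2 and 1 in NOTCH2. ALDH1A1 and PROM1 had 0. The 3 promoters below are shown because their genes were lower in the libraries labelled DOX. Capitals mark E-boxes and GC boxes on either strand, and runs of capitals longer than a motif are GC boxes that overlap or adjoin. They lie at chr10:22320849-22321098 (plus strand) for BMI1, chr9:107489770-107490019 (minus strand) for KLF4 and chr9:136546049-136546298 (minus strand) for NOTCH1.
BMI1: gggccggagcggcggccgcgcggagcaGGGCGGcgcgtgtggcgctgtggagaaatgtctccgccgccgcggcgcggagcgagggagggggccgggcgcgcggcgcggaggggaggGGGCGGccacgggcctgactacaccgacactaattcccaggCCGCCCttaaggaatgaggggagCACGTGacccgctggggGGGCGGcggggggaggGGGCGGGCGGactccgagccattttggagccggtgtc
KLF4: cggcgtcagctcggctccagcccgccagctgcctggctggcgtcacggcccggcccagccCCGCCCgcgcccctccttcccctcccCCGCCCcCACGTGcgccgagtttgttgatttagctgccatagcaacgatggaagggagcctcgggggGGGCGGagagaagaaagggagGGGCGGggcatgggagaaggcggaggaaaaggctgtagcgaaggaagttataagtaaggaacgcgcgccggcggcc
NOTCH1: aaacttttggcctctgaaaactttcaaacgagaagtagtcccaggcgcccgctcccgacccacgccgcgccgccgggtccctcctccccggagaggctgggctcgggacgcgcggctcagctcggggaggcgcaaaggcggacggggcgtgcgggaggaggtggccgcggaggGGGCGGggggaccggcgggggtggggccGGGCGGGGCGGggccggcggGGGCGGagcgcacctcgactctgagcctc
The E-box began 70 bases before the start in BMI1 and 157 bases before it in KLF4. These matches describe letters and were not tested for binding.

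The silencing libraries held 28045894 to 45807989 counts each, and the overexpression libraries 13806856 to 19208944. MUC1 was low in LNCaP-ER cells, with counts of 26, 10 and 13 with vehicle and of 3, 42 and 8 in the libraries labelled DOX. Replicate 2 of the latter therefore went against its label. A difference of MUC1 between the groups was not resolved (log2 fold change 0.12 ± 0.93 SE, 95% confidence interval -1.98 to 2.22). The adjusted p was 0.935 by the quasi-likelihood F-test of edgeR, with Benjamini-Hochberg adjusted values here and below. Without DOX replicate 2 the log2 fold change of MUC1 was -1.83, with an adjusted p of 0.0617. In the same library 11.2% of listed genes were at 0, against 27.95 to 38.1% in the others. In the overexpression experiment MUC1 counts were 30, 25 and 31 in LNCaP and 9168, 9959 and 12622 in LNCaP/MUC1-C OE, a 482-fold difference (95% confidence interval 405 to 573). The summed level of 8 luminal prostate markers was 344 to 355 CPM (counts scaled to the library total) in the libraries labelled LNCaP, against 3990 to 4192 CPM in LNCaP-ER cells with vehicle. In a check on sex-linked transcripts, 6 of 6 libraries of the overexpression experiment, both groups included, did not match the line in their labels, against 0 of 6 in the silencing experiment. Whether either overexpression group is LNCaP is therefore not settled, and the names used below follow the labels. The titles of the libraries called LNCaP/MUC1-C OE here read LNCaP shMUC1-C OE. They thus carry a term for an shRNA beside OE, although MUC1 was higher in these libraries.

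The silencing experiment was examined first, as libraries labelled DOX against vehicle. A difference of MUC1 itself between these groups was not resolved, so dependence of the members on MUC1-C was not tested. NOTCH1, BMI1, KLF4 and MYC were lower in the libraries labelled DOX, by 30.7 to 45.0% in the fitted values. NOTCH2 was lower in each of these libraries than in any vehicle library, but did not pass the test. SOX2, CD44, ALDH1A1 and PROM1 were close to 0 counts in both groups. The count filter left 14683 genes, 5 members among them, and 27.3% of the genes tested were called at an adjusted p under 0.05, 14.5% lower and 12.8% higher. Of the 9 members, 4 were thus called lower, 0 higher, 1 was tested and not called, and 4 were below the filter. The median log2 fold change of the 5 tested members was -0.59, beside -0.02 for all genes tested.

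NOTCH1, the receptor with the smallest spread, was at 55.6, 58.8 and 61.3 CPM (TMM-normalized) with vehicle. It was at 40.2, 39.8 and 41.8 CPM in the libraries labelled DOX, so that the groups were well apart. The log2 fold change was -0.53 ± 0.09 (SE, n = 3 per group; adjusted p = 0.00408 edgeR). NOTCH2, a paralog with the same domain layout, was at 158, 132 and 142 CPM with vehicle and at 126, 116 and 116 CPM in the libraries labelled DOX. The change of -0.27 ± 0.10 on the log2 scale gave an adjusted p of 0.0641, although the groups did not overlap, which 23.0% of genes tested showed in this direction. NOTCH2NL, a near-identical partial copy that can share reads with NOTCH2, differed by 0.19 ± 0.15 on the log2 scale (adjusted p = 0.367 in the same edgeR fit).

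BMI1 was at 5.69, 6.05 and 6.93 CPM with vehicle and at 3.18, 3.23 and 3.82 CPM in the libraries labelled DOX, without overlap. The log2 fold change was -0.86 ± 0.20 (adjusted p = 0.0134, edgeR). BMI1 overlaps the readthrough gene COMMD3-BMI1, which was listed at 0 in all 12 libraries, and how the authors' counting divided their reads is not stated. KLF4 was at 11.3, 19.7 and 17.2 CPM with vehicle and at 7.94, 10.5 and 10.4 CPM in the libraries labelled DOX. The lowest vehicle library lay just above the highest library labelled DOX, and the log2 fold change was -0.73 ± 0.22 (adjusted p = 0.0358, edgeR). MYC, the most abundant member, was at 375, 623 and 622 CPM with vehicle and at 391, 376 and 313 CPM in the libraries labelled DOX. Vehicle replicate 1 fell within the range of the libraries labelled DOX, and the log2 fold change of -0.59 ± 0.19 was just past the threshold (adjusted p = 0.0491, edgeR).

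**Figure D1:**
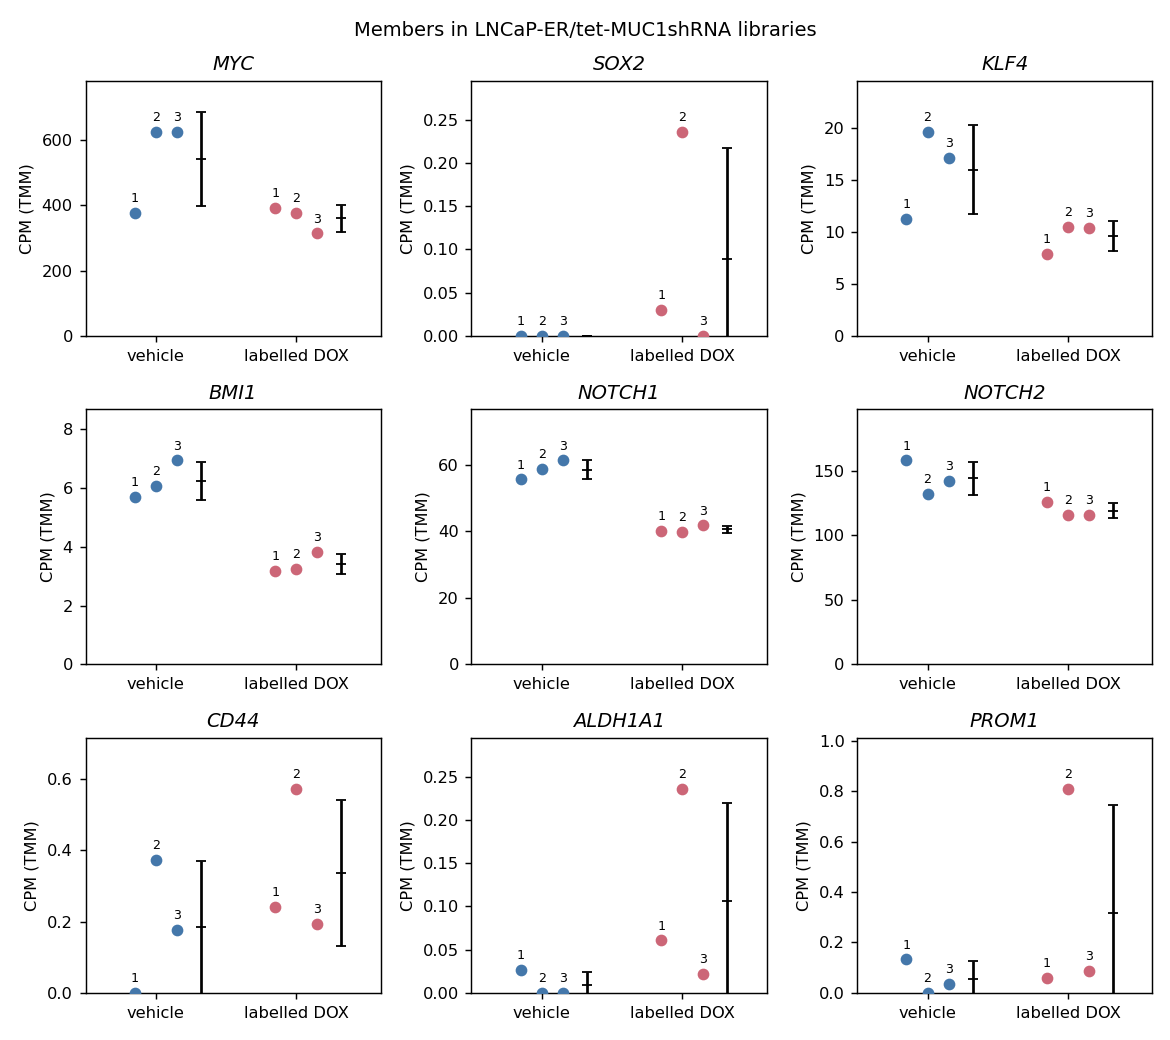
CPM (TMM-normalized, y axis, from 0) of the 9 members in each LNCaP-ER library with vehicle or labelled DOX (x axis). Points are libraries with their replicate number, and bars are the mean and SD of 3 libraries, cut off at 0. NOTCH1 and BMI1 separate by group, vehicle replicate 1 of MYC lies among the libraries labelled DOX, and the members near 0 are highest in DOX replicate 2.

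The calls differed in how they held across the 16 other settings. NOTCH1 was called in 12, BMI1 in 11, KLF4 in 7, MYC in 3 and NOTCH2 in 0 of them. The call of MYC was kept with DESeq2, without the filter and without vehicle replicate 1 (adjusted p = 0.00516), and was lost without DOX replicate 2 at the same log2 fold change of -0.59 (adjusted p = 0.0710). On the deposited TPM scale no member was called, and the log2 fold changes were -0.16 for BMI1, -0.11 for KLF4, 0.00 for MYC, 0.02 for NOTCH1 and 0.25 for NOTCH2. On that scale the median of all genes tested was shifted by 0.45, so that all 5 tested members were below it. The small nuclear RNA RN7SK held 35.2 to 37.7% of TPM with vehicle and 24.6 to 31.4% in the libraries labelled DOX. With RN7SK left out, a setting chosen after the data were seen, BMI1 was at -0.30, KLF4 at -0.28, MYC at -0.18, NOTCH1 at -0.14 and NOTCH2 at 0.09, against a median of 0.29.

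**Figure D2:**
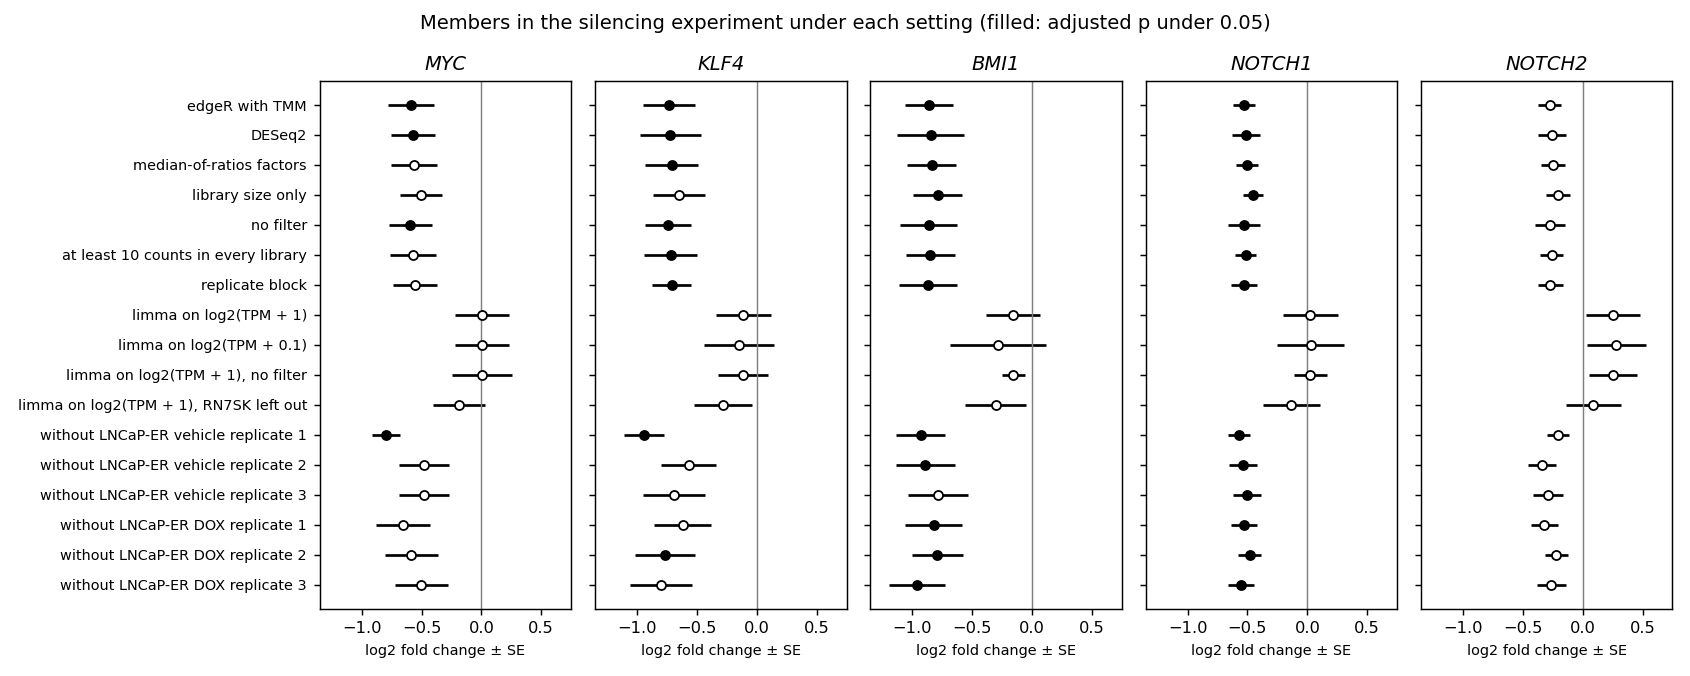
Log2 fold change ± SE (x axis) of the 5 tested members, libraries labelled DOX against vehicle, under each setting (y axis). Filled points have an adjusted p under 0.05. NOTCH1 and BMI1 stay filled in most settings on counts, and all members are open on the TPM scale.

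Among the members below the filter, SOX2 counts were 0, 0 and 0 with vehicle and 1, 7 and 0 in the libraries labelled DOX. CD44 counts were 0, 11 and 5 with vehicle and 8, 17 and 9 in the libraries labelled DOX. ALDH1A1 counts were 1, 0 and 0 with vehicle and 2, 7 and 1 in the libraries labelled DOX. PROM1 counts were 5, 0 and 1 with vehicle and 2, 24 and 4 in the libraries labelled DOX. Each of these 4 members was highest in DOX replicate 2, as were 84.7% of the 10797 genes with any count that were below the filter. A difference between the groups was not detectable at this depth.

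Per transcript length, MYC was the highest member, at 54.2 to 95.9 TPM over the 6 LNCaP-ER libraries. NOTCH2 followed at 6.40 to 10.8 TPM. NOTCH1 at 3.39 to 4.77 TPM and KLF4 at 2.51 to 4.27 TPM overlapped each other. BMI1 was at 0.864 to 1.26 TPM, and SOX2, CD44, ALDH1A1 and PROM1 were at most at 0.217 TPM. How transcript lengths were set is not stated in the sources used here. Nor is the counting of reads shared by BMI1 and COMMD3-BMI1, which could affect the level of BMI1.

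The other genes of the Notch pathway did not move in 1 direction with NOTCH1. Of 4 ligands tested, JAG1 was higher at 58.5, 45.2 and 71.9 CPM in the libraries labelled DOX, against 32.8, 45.2 and 41.0 CPM with vehicle. The log2 fold change was 0.56 ± 0.18 (adjusted p = 0.0452, edgeR), with the groups touching at 45.2 CPM, and the other 3 ligands did not pass. JAG1 was called in 10 of 16 other settings. Of the 2 remaining receptors, neither passed, with log2 fold changes of -0.22 ± 0.24 for NOTCH3 and 1.73 ± 0.95 for NOTCH4. NOTCH4 was near the floor, at means of 0.25 CPM with vehicle and 0.84 CPM in the libraries labelled DOX, with overlap. Of 13 genes for receptor processing, 2 were higher and 0 lower. Both encode parts of γ-secretase, PSEN2 (log2 fold change 1.17, adjusted p = 0.00107) and PSENEN (0.56, adjusted p = 0.0115). Of 9 genes for trafficking and turnover, 1 passed, NUMBL, a relative of the Notch antagonist NUMB (0.52, adjusted p = 0.0362).

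In the nucleus, 7 genes of the RBPJ complex and its cofactors were tested. The coactivator MAML3 (-0.48, adjusted p = 0.0184) and the corepressor SPEN (-0.29, adjusted p = 0.0376) were lower, and the acetyltransferase KAT2B (0.54, adjusted p = 0.00999) was higher. Of 16 other settings, SPEN was called in only 2, MAML3 in 11 and KAT2B in 16. Of 4 Notch target genes tested, HES4 (-1.13, adjusted p = 0.0210) and NRARP, a feedback inhibitor of Notch (-0.57, adjusted p = 0.00575), were lower. HES1 was at 2.21, 2.31 and 2.56 CPM with vehicle and at 3.18, 2.46 and 4.87 CPM in the libraries labelled DOX, and did not pass (0.58, adjusted p = 0.194). HEY1 did not pass either (1.22 ± 0.49, adjusted p = 0.0971). Its means were 1.14 CPM with vehicle and 2.65 CPM in the libraries labelled DOX, with overlap. These adjusted p-values come from the same edgeR fit. The median log2 fold changes were 0.13 for ligands, 0.18 for processing, 0.14 for trafficking, -0.15 for nuclear genes and 0.00 for targets, beside -0.02 for all genes tested. Without DOX replicate 2, 2 targets were lower and 2 higher, processing genes had 1 lower and 3 higher, and trafficking genes had 1 lower and 2 higher.

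Among relatives of the stemness factors, 2 of 11 genes of the MYC family and MAX network were lower and 2 higher. The lower ones were MLXIPL, a glucose-responsive factor (log2 fold change -1.65, adjusted p = 0.00377), and the MYC antagonist MXI1 (-0.81, adjusted p = 0.0148). The MYC antagonists MXD1 (1.02, adjusted p = 0.00175) and MXD4 (0.56, adjusted p = 0.0146) were higher. Of 18 PRC1 subunits other than BMI1, 5 were lower, among them PHC3 (-0.83), PCGF6 (-0.75) and KDM2B (-0.54), and 1 was higher, CBX6 (0.55), with adjusted p-values of 0.00226, 0.00681, 0.0109 and 0.00331 in the same edgeR fit. Of 13 KLF and SOX relatives, 4 were lower, including KLF3 (-0.82) and SOX11 (-1.34), and 3 were higher, KLF13 (0.63), KLF10 (0.88) and KLF6 (0.87). The medians were 0.13 for the MAX network, -0.03 for PRC1 and -0.07 for KLF and SOX genes. Of 11 further stem-cell surface markers and ALDH enzymes, ALDH1A3 (0.63, adjusted p = 0.00585) and PROM2 (0.54, adjusted p = 0.0197) were higher and 0 were lower, with a median of 0.06. Neither of 2 pluripotency factors tested passed.

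Markers of cell state moved in the same libraries. Of 8 luminal markers 5 were higher and 0 lower, and their sum was 3990 to 4192 CPM with vehicle and 5033 to 5463 CPM in the libraries labelled DOX. KLK3 (log2 fold change 1.18), KLK2 (1.41) and TMPRSS2 (0.84) rose. Of 4 mesenchymal markers tested, FN1 was lower (-1.46) and VIM higher (2.63), and the sum of the list was 214 to 233 CPM with vehicle and 106 to 131 CPM in the libraries labelled DOX. Neither of 2 neuroendocrine markers and not the 1 basal marker tested passed, with sums of at most 24.2 and 3.24 CPM. Of 2 blood and endothelial markers, the lysosomal gene CD68 was higher (1.72), with a sum of 9.22 to 11.97 CPM with vehicle and 24.6 to 28.8 CPM in the libraries labelled DOX. The part of these shifts in the values of the members was not tested, and in bulk libraries fewer cells of a kind and less RNA per cell cannot be told apart.

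In the overexpression experiment, the question was whether the members rise with MUC1-C. NOTCH2, BMI1 and MYC were higher in LNCaP/MUC1-C OE libraries, and ALDH1A1 fell by 78.8%. NOTCH1, SOX2 and KLF4 did not pass the test, and CD44 and PROM1 were below the filter. Of 13836 genes tested, 67.3% were called, 33.2% higher and 34.1% lower, and in 70.3% the groups did not overlap. Of the 9 members, 3 were called higher, 1 lower, 3 were tested and not called, and 2 were below the filter. A call was thus the common outcome for a gene in this experiment, and the median over the 7 tested members was 0.16, beside -0.01 for all genes tested.

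NOTCH2 was at 240, 251 and 244 CPM in LNCaP and at 343, 319 and 343 CPM in LNCaP/MUC1-C OE, far beyond the spread within each group. The log2 fold change was 0.45 ± 0.05 (adjusted p = 1.56e-07, edgeR), and it was called in all 12 other settings. NOTCH2NL differed by -0.11 ± 0.11 (adjusted p = 0.389, edgeR). NOTCH1 was at 47.2, 44.4 and 47.2 CPM in LNCaP and at 35.0, 44.3 and 45.4 CPM in LNCaP/MUC1-C OE, so that the groups overlapped and OE replicate 1 was the lowest. The log2 fold change was -0.16 ± 0.08 (adjusted p = 0.107, edgeR), and it was called in 2 of 12 other settings, without OE replicate 3 (-0.22, adjusted p = 0.0441) and with scaling to library size only (-0.31, adjusted p = 0.00399). Without OE replicate 1 the difference was -0.05 (adjusted p = 0.532, edgeR).

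BMI1 was at 2.07, 2.43 and 1.66 CPM in LNCaP and at 3.31, 5.05 and 3.83 CPM in LNCaP/MUC1-C OE, without overlap. This was a log2 fold change of 0.97 ± 0.21 (adjusted p = 0.000529, edgeR), from 32 to 66 counts per library. MYC was at 105, 115 and 115 CPM in LNCaP and at 130, 121 and 123 CPM in LNCaP/MUC1-C OE. Its log2 fold change was 0.16 ± 0.05 (adjusted p = 0.0117, edgeR). The difference was 0.01 (adjusted p = 0.918) with scaling to library size only, which moved the median of all genes to -0.16, and 0.12 (adjusted p = 0.0900) without LNCaP replicate 1.

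SOX2 was at 12.4, 12.4 and 11.9 CPM in LNCaP and at 12.4, 13.9 and 12.97 CPM in LNCaP/MUC1-C OE. A difference of 0.10 ± 0.09 on the log2 scale did not pass (adjusted p = 0.381, 95% confidence interval -0.10 to 0.29, edgeR). SOX2 lies within SOX2-OT, a long noncoding gene with at most 11 counts per library. KLF4 was at 4.09, 3.38 and 3.69 CPM in LNCaP and at 5.21, 3.44 and 4.54 CPM in LNCaP/MUC1-C OE, with overlap (0.25 ± 0.17, adjusted p = 0.216, edgeR).

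ALDH1A1 was at 10.8, 6.39 and 5.82 CPM in LNCaP and at 1.08, 1.38 and 2.33 CPM in LNCaP/MUC1-C OE. The lowest LNCaP library was above the highest OE library, and the log2 fold change was -2.24 ± 0.33 (adjusted p = 0.000183, edgeR). CD44 counts were 13, 3 and 2 in LNCaP and 5, 4 and 30 in LNCaP/MUC1-C OE, so that most OE counts came from replicate 3. PROM1 counts were 1, 2 and 0 in LNCaP and 0, 3 and 2 in LNCaP/MUC1-C OE. The unused columns of this table were not examined, so counts this low were not checked against its other libraries.

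**Figure D3:**
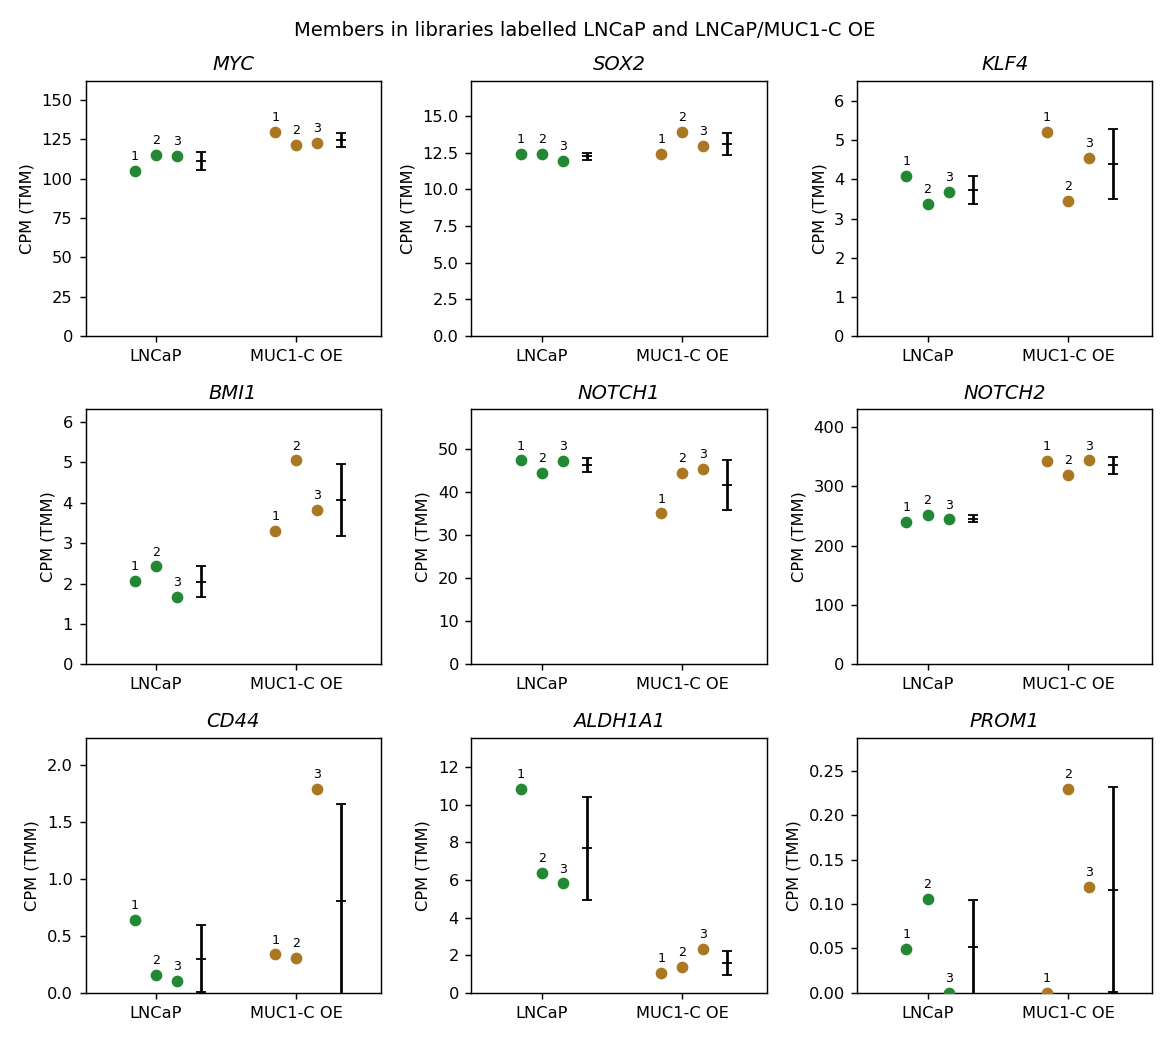
CPM (TMM-normalized, y axis, from 0) of the 9 members in each library labelled LNCaP or LNCaP/MUC1-C OE (x axis). Points are libraries with their replicate number, and bars are the mean and SD of 3 libraries, cut off at 0. NOTCH2 and BMI1 are higher and ALDH1A1 is lower in every OE library, and 1 OE library carries most of the CD44 signal.

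The Notch pathway again split by gene rather than by direction. Of 5 ligands, 3 were lower and 2 higher (median -0.30). JAG1 (log2 fold change -1.19, adjusted p = 1.85e-07), DLL4 (-0.99) and JAG2 (-0.30) were lower, and DLL3 (0.55) and DLL1 (0.41) were higher. JAG1 was at 10.2, 10.1 and 9.61 CPM in LNCaP and at 4.19, 4.21 and 4.66 CPM in LNCaP/MUC1-C OE. NOTCH3 was lower (-0.33, adjusted p = 0.000241). Of 13 processing genes, 2 were lower, including the γ-secretase subunit APH1B (-1.68), and 4 higher, including the γ-secretase subunits NCSTN (0.48) and PSEN2 (0.42). Their median was 0.08. Of 10 trafficking genes, 5 were lower and 4 higher (median -0.16, the same with DTX1 at its bound). DTX1, a Deltex ubiquitin ligase, had 57 to 62 counts in LNCaP and 0 in each OE library, so that it was at least 50.3-fold lower against a floor of 3 counts over the group. NUMBL (0.97) and NUMB (0.52) were higher.

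Of 7 nuclear genes, 1 was lower and 5 higher (median 0.46). SPEN (log2 fold change 1.28, adjusted p = 2.60e-11), SNW1 (0.46) and MAML3 (0.53) were higher, and KAT2B (-0.73) was lower. Of 6 Notch target genes tested, 4 were higher and 2 lower (median 0.22). HES4 (0.93), HEYL (0.40) and HEY1 (0.25) were higher, and HES1 (-0.33) and HEY2 (-0.49) were lower, with adjusted p-values from 4.23e-09 to 0.00218 in the same edgeR fit.

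**Figure D4:**
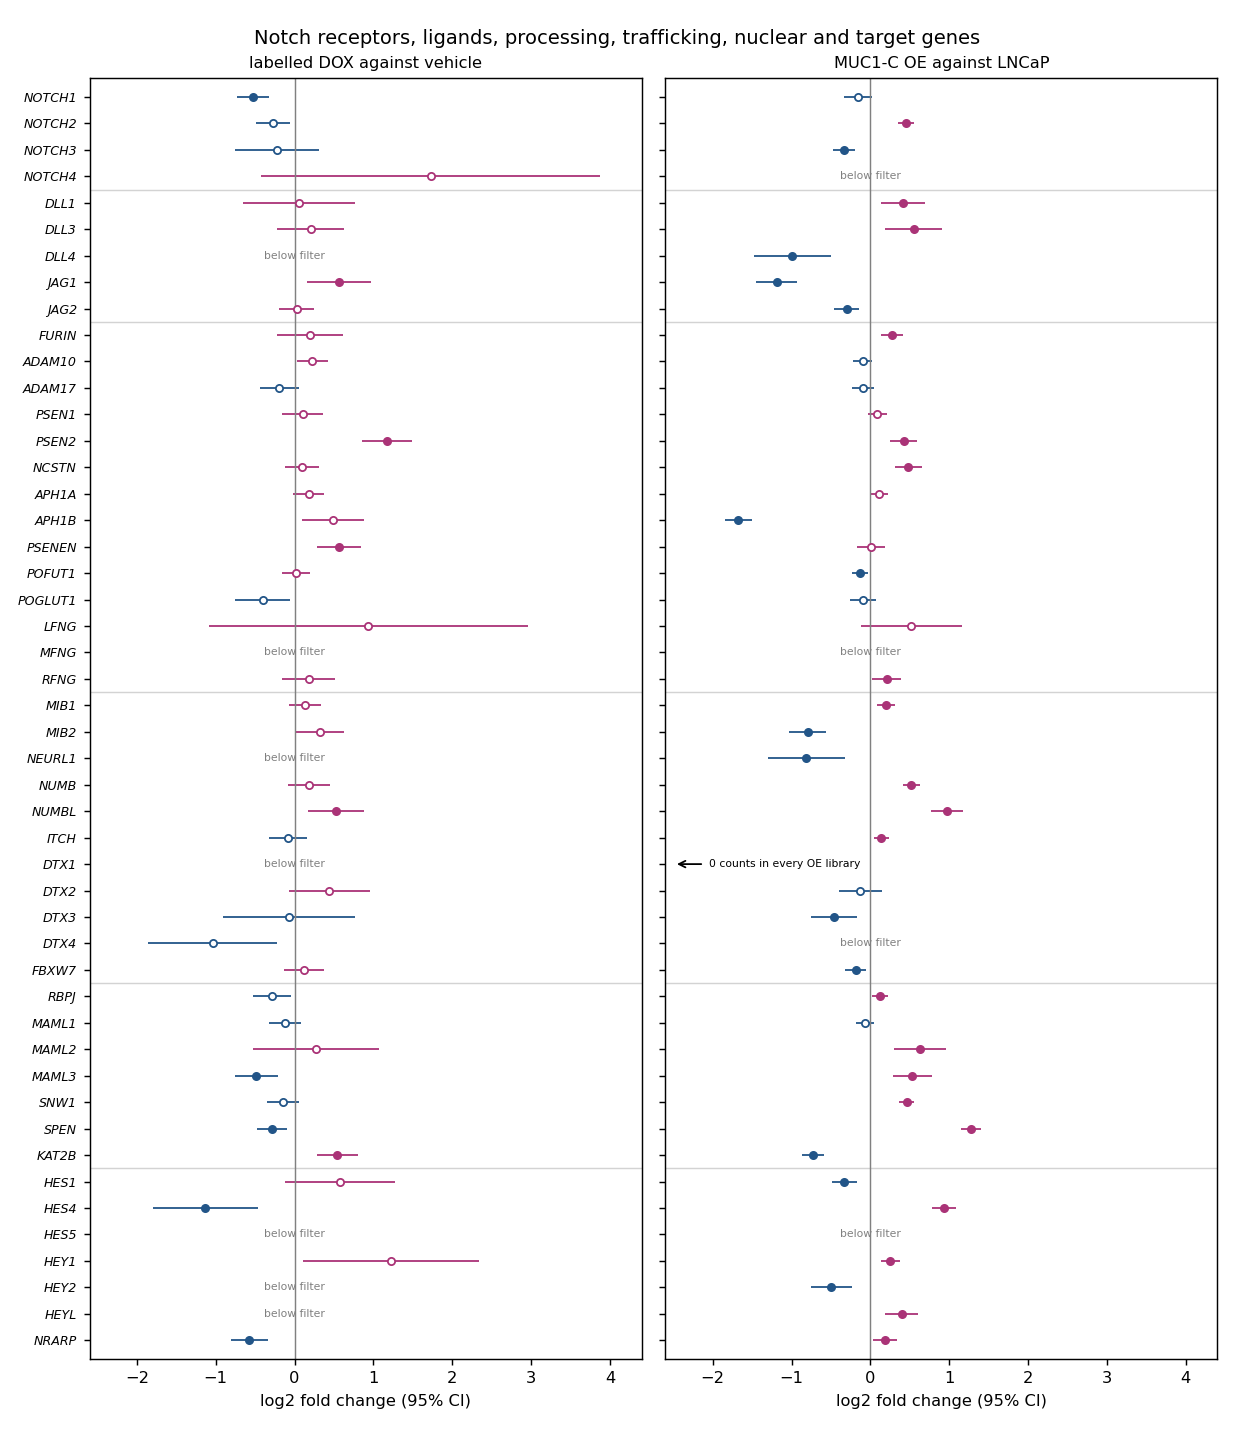
Log2 fold change with 95% confidence interval (x axis) of Notch receptors, ligands, processing, trafficking, nuclear and target genes (y axis, in this order, separated by lines) in the silencing (left) and overexpression (right) experiments. Filled points have an adjusted p under 0.05, purple is higher and blue is lower, and the arrow marks DTX1 at 0 counts in every OE library. Each group of genes holds points on both sides of 0 in the right panel.

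Relatives of the stemness factors were mostly called, like other genes in this experiment. Of 12 genes of the MYC family and MAX network, 2 were lower and 5 higher (median 0.16), with MXD1 at -0.71, MYCN at -0.89 and MYCL at 0.45. Of 18 PRC1 subunits, 4 were lower and 7 higher (median 0.08), led by the catalytic subunit RNF2 (0.64) and by PHC2 (0.54). Of 12 KLF and SOX relatives, 9 were higher, such as KLF6 (1.54), SOX12 (0.75) and SOX4 (0.62), and 1 lower, KLF10 (-0.45), with a median of 0.56. Of 3 pluripotency factors, TFCP2L1 (-2.33) and ESRRB (-0.74) were lower and LIN28B (0.39) was higher, with a median of -0.74. Of 14 surface markers and ALDH enzymes, 7 were lower and 3 higher (median -0.51). The ALDH1 enzymes ALDH1A3 (-4.45) and ALDH1A2 (-2.33) were lower along with ALDH1A1, as was the laminin receptor subunit ITGA6 (-1.003), and ITGB1 (0.64) and LGR5 (0.80) were higher.

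The fall of ALDH1A1 came with a wide loss of luminal markers, of which 7 of 8 were lower and 0 higher, and whose median was -6.03, or -4.50 with 4 genes at their bounds. Their sum was 344 to 355 CPM in LNCaP and 63.2 to 70.7 CPM in LNCaP/MUC1-C OE, and KLK3, KLK2 and FOLH1 were at 0 in each OE library. KLK3, which encodes prostate-specific antigen, was at least 390-fold lower. Of 6 mesenchymal markers 4 were higher, including VIM (1.49) and ZEB1 (0.94), and 2 lower, and their sum was 786 to 840 CPM in LNCaP and 1478 to 1575 CPM in LNCaP/MUC1-C OE. Of 4 neuroendocrine markers 3 were lower and 1 higher, with a sum of 78.4 to 83.6 CPM in LNCaP and 34.6 to 45.3 CPM in LNCaP/MUC1-C OE. The 1 blood or endothelial marker tested, CD68, was lower (-1.05), with sums of at most 2.39 CPM, and 0 basal markers were tested, with sums of at most 0.167 CPM. The part of these shifts in the values of ALDH1A1, NOTCH2, BMI1 and MYC was not tested, and a difference of line or clone between the groups and an effect of MUC1-C cannot be told apart.

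Set side by side, 4 of the 5 members tested in both experiments had fitted changes of opposite sign, as did 57.8% of the 11682 genes tested in both, with different controls in each. MYC had log2 fold changes of -0.59 and 0.16, BMI1 of -0.86 and 0.97, and both passed in each experiment. In silencing MYC was called in 3 and BMI1 in 11 of 16 other settings. In overexpression MYC was called in 10 and BMI1 in 12 of 12. NOTCH2 had values of -0.27 and 0.45 and KLF4 of -0.73 and 0.25, of which NOTCH2 passed only in overexpression and KLF4 only in silencing. NOTCH1 was at -0.53 and -0.16, the second of which did not pass. No test compared the experiments, which were counted in separate tables.

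**Figure D5:**
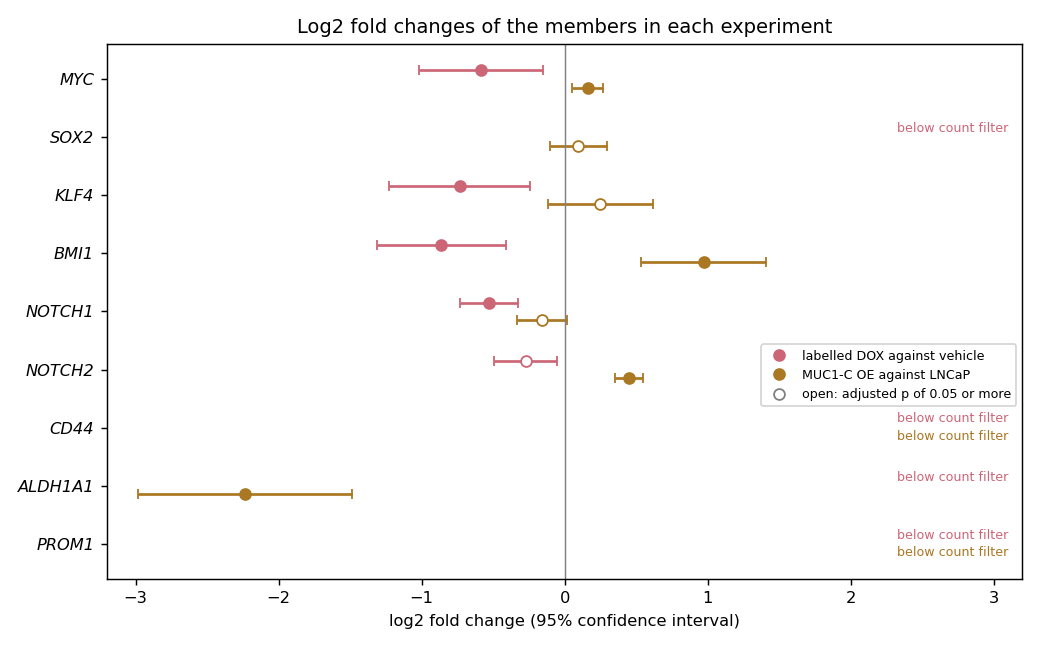
Log2 fold change with 95% confidence interval (x axis) of each member (y axis) for the libraries labelled DOX against vehicle and for LNCaP/MUC1-C OE against LNCaP. Open points have an adjusted p of 0.05 or more, and members below the count filter are written out. BMI1 lies on opposite sides of 0 in the 2 experiments, and ALDH1A1 has the widest interval.

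The control groups of the tables differed in the levels of several members, as CPM of the library total and with no test. Whether the libraries labelled LNCaP are that line is not settled, so these values need not compare LNCaP-ER with its parental line. The groups were counted in separate tables of 28008 and 25435 genes, and the LNCaP-ER cells carried the inducible MUC1 shRNA. Differences of line, construct and table cannot be told apart. MYC was at 513 CPM over the LNCaP-ER vehicle libraries and at 117 CPM over those labelled LNCaP, and KLF4 was at 15.3 and 3.93 CPM. BMI1 was at 6.03 and 2.16 CPM, NOTCH1 at 57.0 and 48.8 CPM and NOTCH2 at 142 and 258 CPM. SOX2 had 717 counts over the 3 libraries labelled LNCaP and 0 over LNCaP-ER vehicle, at least 419-fold lower against a floor of 3 counts over the group. ALDH1A1 had 453 counts over those labelled LNCaP and 1 count over LNCaP-ER vehicle.

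Genes whose log2 CPM, centred within each experiment, followed a member most closely over the 12 libraries were listed for the 5 members tested in both. For each member, 8117 or 8118 genes were searched, and the libraries of an experiment share their table and normalization, so that r is a description. Centring used the mean of all 6 libraries of an experiment. The difference between its groups was left in, and r can largely restate that difference. MYC was followed most closely by ZRANB1 (r = 0.986), GDPD1 and ZCCHC7. KLF4 was followed by MBD6 (r = 0.954), PDLIM7 and RNF214, and BMI1 by MBIP (r = 0.952), ZBTB14 and SNRNP40. NOTCH1 was followed by USP31 (r = 0.973), MAN2A2 and the PRC1 subunit PHC3 (r = 0.953). NOTCH2 was followed by UBE2T (r = 0.989), RPARP-AS1 and CEP97.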

How the data were processed

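RNA-Seq libraries (TruSeq Stranded mRNA, per the labels) were analysed for 12 samples in 4 groups of 3, grouped by the sample titles. The authors deposited raw counts per gene symbol, and for the silencing experiment also TPM values for 25545 genes. STAR, DESeq2 and GRCh38/hg38 are named in the submitters' processing notes without versions or roles. Whether counting used strand is not given in the sources used here. A further 12 columns of per-sample values in the overexpression table were not used, and its control columns are named vector where the labels say wild-type. Each table was fitted on its own with edgeR 4.0.16 in R 4.3.3 (TMM, filterByExpr with a minimum count of 10, glmQLFit with robust estimation, Benjamini-Hochberg adjustment over all genes tested, threshold 0.05). Scripts were tested on simulated data. Alternatives used DESeq2 1.42.0, other scaling and filters, a replicate block, leaving out each library, and limma 3.58.1 on log2(TPM + 1). Floors were 3 counts and cover counting error only. No replicate pair was alike within sampling noise (chi-square over its degrees of freedom, 2.27 to 69.1).

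Besides MUC1 and the 9 members, genes were named as the up to 3 with the smallest p in each direction among those called in each list, and the 3 with the highest r to each member at a mean of at least 10 CPM. Genes named outside this rule (NOTCH2NL, COMMD3-BMI1, SOX2-OT, RN7SK, NOTCH3 and NOTCH4 in silencing, HES1 and HEY1 in silencing, and genes at 0) were chosen after their values were seen. The members and lists were chosen with earlier results of these data known. Results of 2 genes of these lists are not reported here, and they were left out of the counts of the lists.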

Additional observations from a re-analysis of the deposited data

How the results depend on the processing

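In the silencing experiment 4 members and 4006 genes were called. Scaling to library size only called 2 members. Limma on log2(TPM + 1), on log2(TPM + 0.1), on log2(TPM + 1) without a filter and with RN7SK left out called 0 members, and 1673 genes were called without a filter on TPM. Leaving out 1 library gave 1 to 4 members and 2002 to 5243 genes, with 1 member without vehicle replicate 3, 2 members without vehicle replicate 2, DOX replicate 1 or DOX replicate 3, 2200 genes without vehicle replicate 2, 2002 without vehicle replicate 3 and 2067 without DOX replicate 3. On log2(TPM + 1) the log2 fold changes of MYC (0.0031), NOTCH1 (0.0246), MAML3 (0.0689), SPEN (0.24) and KDM2B (0.0177) changed sign, also without a filter, and on log2(TPM + 0.1) they were 0.0029, 0.0284, 0.0798, 0.27 and 0.0195. With RN7SK left out SPEN was at 0.0745. The share of calls that were higher was 46.8%, 59.6% with library size only and 95.04% on log2(TPM + 1). In overexpression, leaving out 1 library gave 3 to 5 members and 8486 to 9512 genes, and library size only moved the share of higher calls from 49.4 to 32.3%.

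Libraries with the same replicate number did not deviate together (r = -0.07 to 0.09 in silencing and -0.15 to -0.03 in overexpression). No pairing by number was seen, although 3 libraries per group cannot exclude it. With the number as a replicate block, 3 members and 4226 genes were called in silencing and 4 members and 8965 genes in overexpression.

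The low counts of SOX2, CD44, ALDH1A1 and PROM1 in LNCaP-ER cells allow no comparison of DOX with vehicle. Those of CD44 and PROM1 in the overexpression table allow none between its groups.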
